A study of Homo sapiens with 6 samples.

Results

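Readthrough loci are entries of a gene annotation that run from one gene into its downstream neighbour, and they are named by joining the symbols of both parent genes with a hyphen. In the count table of human SZ95 sebocytes treated with PM2.5, 130 of 27685 rows had a symbol with exactly 1 hyphen whose parts were each the symbol of another row. The table's own gene descriptions called all 130 of them readthrough loci. Another 1738 symbols with 1 hyphen did not split into 2 other symbols and were left out. The 130 loci named 257 different parent genes, of which 3 (RAB4B, PRH1 and BLOC1S5) belonged to 2 loci each. The question asked of each locus was how its level, its change after PM2.5 and its spread between libraries compared with those of its parents.

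RNA polymerase normally stops beyond the polyadenylation site of a gene, where the transcript is cut and the polymerase is released. When it does not stop, it can run on into the next gene on the same strand, and splicing can then join an exon of the upstream gene to an exon of the downstream gene. Such a transcript usually lacks the last exon of the first gene and the first exon of the second, and it can encode a fusion of both proteins or be degraded by nonsense-mediated decay.

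SZ95 is a human sebaceous gland cell line immortalized with the SV40 large T antigen. The cells received 20% ethanol, the vehicle, as control, or PM2.5 at 100 μg/mL that had been resuspended in 20% ethanol, both for 24 h in phenol-red free DMEM/F-12 with penicillin and streptomycin. All samples were of the wild-type genotype, and 3 libraries of polyadenylated RNA were sequenced from each group with a stranded kit. Nothing in the labels says whether the 3 samples of a group were separate cultures, and the p-values therefore reflect the variation among the sequenced samples alone, which may be technical.

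Library totals ran from 56460553 to 71080000 counts. Levels are given in CPM (counts scaled to a common library size with TMM factors), as mean ± SD over 3 libraries (n = 3 in each group), and a gene was called changed at an edgeR adjusted p under 0.05. Of the sebocyte markers, KRT7 stood at 1411 ± 48.6 CPM in the control libraries and at 1030 ± 146 CPM after PM2.5, where it was called lower (edgeR adjusted p = 0.00617), while AWAT1 and AWAT2 were at 0 in all 6 libraries. MUC1 was also called lower (115 to 104 CPM, edgeR adjusted p = 0.0242), whereas FASN (404 to 807 CPM), SCD (482 to 1191 CPM) and FADS2 (259 to 424 CPM) were called higher. The summed level of the 15 sebocyte markers was 2755 to 2857 CPM in control and 3413 to 3856 CPM in PM2.5 libraries, that of the 4 immune markers 64.4 to 70.4 and 105 to 116 CPM (nearly all CD68), and that of the 7 keratinocyte markers 359 to 390 and 296 to 337 CPM. Among the keratinocyte markers IVL was called lower, at 111 CPM in control and 39.5 CPM after PM2.5. KRT5, the most abundant of them, went from 233 to 252 CPM without a call. KRT10 and KRT14 were also called lower, and FLG was called higher. The 6 fibroblast markers summed to 44.1 to 49.2 and 52.3 to 56.6 CPM. Of these, COL1A1 was called higher (43.6 to 52.6 CPM) and LUM lower (3.37 to 1.43 CPM), and the others were not tested. The 4 melanocyte markers summed to 12.6 to 13.7 and 12.3 to 15.9 CPM, and CD3E, MLANA and TYR were at 0 throughout. The part of these shifts in the results below was not tested, and in bulk RNA fewer cells of a type cannot be told apart from less RNA per cell.

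The structure of the loci was taken from GENCODE release 29 on GRCh38, since the study's alignment build was hg19 and no annotation of that build was used here. Of the 130 loci, 124 were matched, and 123 of these had both parents on the same chromosome and strand. The exception was BORCS7-ASMT, where the gene with the symbol ASMT did not lie there. ASMT was kept as a parent by name, so the comparison of this locus with ASMT may not concern a neighbouring gene. The gene named first lay upstream in all 123. The median gap between the parents was 6909 bases, and in 5 pairs the parents overlapped. Exons of a locus coincided almost entirely with those of its parents: a median of 99.7% of the exon bases were shared, 57 loci had no exon base of their own, 21 had 1 to 99 and 45 had at least 100. Loci had a median of 1 own splice junction among 9, and 10 loci had none. Of these 10, TEN1-CDK3 and MSH5-SAPCD1 had 763 and 161 own exon bases and TMX2-CTNND1 had none. A junction from a first-parent exon to a second-parent exon was found in 94 loci and spanned an intron of 679 to 501759 bases, with a median of 17686.

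Where a locus has no exon bases of its own but has a joining junction, a read across that junction is what distinguishes it from its parents. A locus with neither, such as TMX2-CTNND1, has no distinguishing read in this annotation. The junctions of loci that carry the results are printed here. Each shows 15 bases of the upstream parent's exon in lower case followed by 15 bases of the downstream parent's exon in capitals, 5′ to 3′ on the transcribed strand, from GRCh38 and an annotated coding transcript of the locus. The first 7 belong to loci that were called changed, SAA2-SAA4 to a locus that changed only relative to its parents, TVP23C-CDRT4 to a locus with more counts than either parent, and the last 5 to loci whose counts moved between libraries of 1 group.
RPL17-C18orf32: gcccagaagaaaaagTTGAGGAGCTCAAGC
URGCP-MRPS24: atgattttccaacagGTGCTGTCCTGGAGC
HSPE1-MOB4: ggttctaaaggaaagGATTTCTATAATTGG
CKLF-CMTM1: aagatgctgcggctgGATCTTACCAACAGT
PPT2-EGFL8: atggaggagcaactgCCTGCCAGGCCCACC
EPPIN-WFDC6: cctgcaagaataaacAGCCGTGTCCCAAAA
POC1B-GALNT4: acggcaagcaacttgGAGCCGGCCGTGCCA
SAA2-SAA4: tgcagaagtgatcagCACAATGAGGCTTTT
TVP23C-CDRT4: acagtaaagtggctgGAATCTGAACCTGTG
LY75-CD302: gcaaagtgcctctggACTGTCCTTCATCTA
RPS10-NUDT3: accgaattccagtttGTGCTACTCGTGAGC
JMJD7-PLA2G4B: gaggccatggagaagGCAGAGGTGTCCAGG
BIVM-ERCC5: ggaaaaagatgtctaATATTAGCATTTGGT
ATP6V1G2-DDX39B: agcaagcagcaggcgACAGGCATTTTCCAA

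In coordinates, the intron of the HSPE1-MOB4 junction lies on the plus strand of chromosome 2 between an exon end at 197501238 and an exon start at 197523624. That of RPL17-C18orf32 lies on the minus strand of chromosome 18 between 49483771 and 49489359, that of URGCP-MRPS24 on the minus strand of chromosome 7 between 43869376 and 43881659, and that of RPS10-NUDT3 on the minus strand of chromosome 6 between 34341972 and 34418369. The JMJD7-PLA2G4B intron lies on the plus strand of chromosome 15 between 41836551 and 41840158. The transcripts shown for PPT2-EGFL8 and ATP6V1G2-DDX39B are annotated as targets of nonsense-mediated decay. RPL17-C18orf32, HSPE1-MOB4, URGCP-MRPS24 and CKLF-CMTM1 had no exon base outside their parents, whereas 389 of the 2878 exon bases of PPT2-EGFL8 and 565 of the 1156 of EPPIN-WFDC6 were their own. How the study's counting divided reads over shared exons is not given in the sources used here, so every count of a locus and of its parents is uncertain in that respect.

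Most readthrough loci had far lower counts than their parents, with the uncertainty over shared exons given above. Of the 130 loci, 93 passed the filter on low counts and were tested. The 37 others comprised 6 with no count in any library, 21 with at most 1 to 24 counts in their highest library and 10 with at least 50 counts there. Across the 93 tested loci the mean level had a median of 1.76 CPM (range 0.160 to 204), against 18.6 CPM for the 220 tested parents and 22.6 CPM for all 16049 genes tested. Per kilobase of exon, which 91 tested loci allowed, the median was 0.727 CPM for the loci, 11.3 CPM for the upstream parents and 5.92 CPM for the downstream parents. By that measure 59 of the 91 loci were below both parents and 6 above both. The counts of a locus made up a median of 3.17% of the counts of the locus and its parents together. This share was under 5% in 61 loci, 5% to 50% in 27 and over 50% in 5.

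ANKHD1-EIF4EBP3 was the most abundant locus. ANKHD1 encodes an ankyrin repeat protein and EIF4EBP3 a repressor of cap-dependent translation initiation. The locus (gene ID 404734) was at 207, 193 and 203 CPM in the control libraries and at 205, 200 and 218 CPM in the PM2.5 libraries, and the groups overlapped. It held 67.7% ± 3.62 of the counts of the trio in control and 66.3% ± 3.88 after PM2.5. Per kilobase it stood at 24.8 CPM, against 11.9 CPM for ANKHD1 and 0.393 CPM for EIF4EBP3. Of its 8246 exon bases 8136 were shared with its parents, so these levels depend on how shared reads were divided. Within groups the locus and ANKHD1 moved on balance in opposite directions. The standard deviation was 8.27 CPM for the locus, 13.4 CPM for ANKHD1 and 7.83 CPM for their sum. EIF4EBP3 itself rose from 0.158 ± 0.0950 to 0.386 ± 0.0351 CPM (log2 fold change 1.24, SE 0.397, edgeR adjusted p = 0.0353) while the locus that contains its exons was estimated 0.05 higher on the log2 scale (edgeR, SE 0.0503, adjusted p = 0.482).

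In 8 tested loci the counts exceeded those of the upstream parent in all 6 libraries, in 20 those of the downstream parent, and in 3 those of both: ANKHD1-EIF4EBP3, TVP23C-CDRT4 and BOLA2-SMG1P6. TVP23C, a Golgi membrane protein gene, and its neighbour CDRT4 were at 10.9 ± 0.626 and 0.944 ± 1.29 CPM in control, below the 22.3 ± 2.64 CPM of the locus. TVP23C-CDRT4 (gene ID 100533496) was at 23.1, 19.3 and 24.4 CPM in control and at 29.6, 26.2 and 24.2 CPM in PM2.5 libraries, so that only the highest control and the lowest PM2.5 library overlapped (log2 fold change 0.26, SE 0.105, edgeR adjusted p = 0.0782). BOLA2-SMG1P6 (gene ID 107282092) was at 20.2, 11.9 and 18.5 CPM in control and at 14.6, 19.9 and 11.05 CPM after PM2.5. BOLA2, an iron-sulphur cluster assembly factor, and the SMG1 pseudogene SMG1P6 lie in near-identical repeats, so the division of reads among their copies is uncertain. The other loci among the 6 most abundant were JMJD7-PLA2G4B (25.9 CPM), PPT2-EGFL8 (23.6 CPM) and CHKB-CPT1B (15.6 CPM). LOC400927-CSNK1E, which exceeded LOC400927 in every library, followed closely at 14.7 CPM.

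After PM2.5, 10 of the 93 tested readthrough loci were higher and 7 lower. The 17 called loci were 18.3% of those tested, where 43.6% of all 16049 genes passed the same test (21.7% higher and 22.0% lower). Among the 220 tested parents 78 were called, 39 in each direction, which is 35.5%. Groups did not overlap in 20 loci, 21.5% of those tested, against 56.3% of all genes. The median absolute log2 fold change was 0.56 for the loci, 0.19 for the parents and 0.22 for all genes, and its median standard error was 0.414, 0.0849 and 0.0789. A larger standard error by itself raises the absolute estimate, so these medians cannot compare the sizes of the changes. Among 17 loci estimated to change more than 2-fold, 6 were called.

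**Figure D1:**
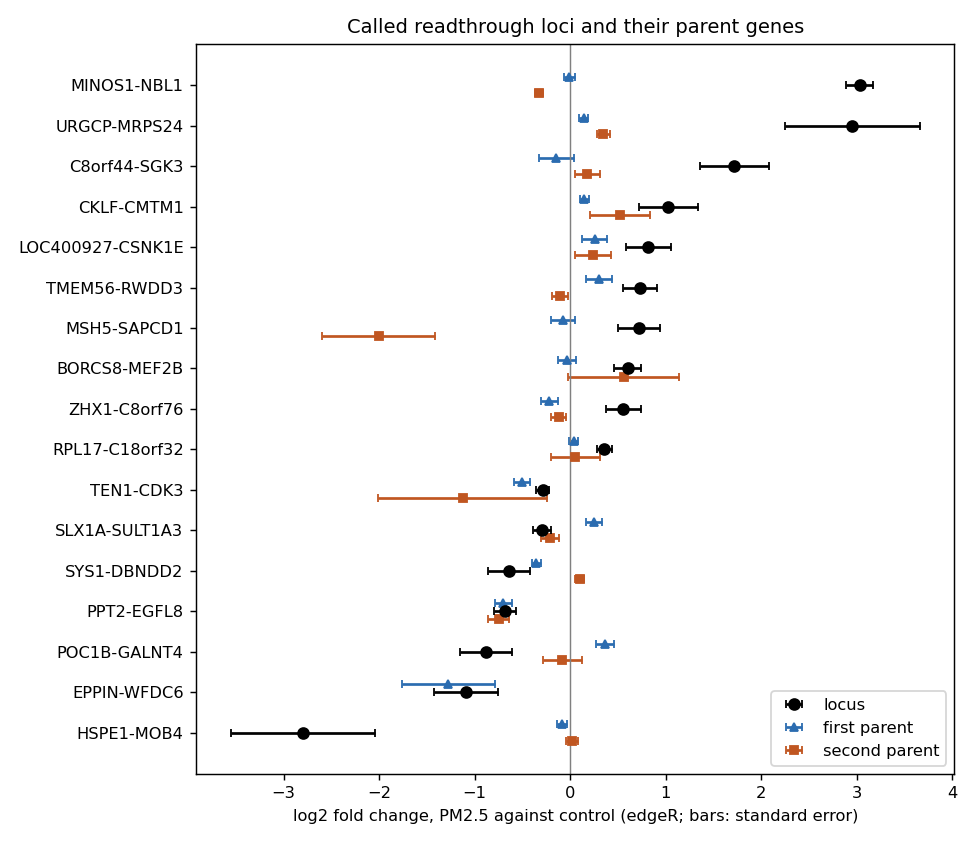
Log2 fold change of the 17 called readthrough loci (black circles) and of their first (blue triangles) and second (orange squares) parents, PM2.5 against control, with edgeR standard errors as bars. WFDC6 was not tested and has no symbol; MINOS1-NBL1 stands at 3.03 with MINOS1 at -0.01 and NBL1 at -0.33.

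MINOS1-NBL1 changed most firmly. MINOS1 encodes a subunit of the MICOS complex that shapes the cristae of mitochondria, and NBL1 a secreted antagonist of bone morphogenetic proteins. The locus (gene ID 100532736, chr1:19596979-19658056 on GRCh38) was at 1.77, 1.64 and 1.25 CPM in the control libraries and at 13.99, 11.4 and 12.7 CPM in the PM2.5 libraries, from 85 to 108 counts and 733 to 854 counts. Every PM2.5 library was above every control library. The fitted change was 3.03 on the log2 scale (edgeR, SE 0.140, adjusted p = 1.64e-05), an 8.17-fold rise. MINOS1 was at 38.9 ± 1.05 CPM in control and 38.7 ± 2.47 CPM after PM2.5 (log2 fold change -0.01, edgeR adjusted p = 0.908), and NBL1 fell from 170 ± 2.13 to 135 ± 1.14 CPM (log2 fold change -0.33, edgeR adjusted p = 0.000522). The locus rose from 0.741% ± 0.132 to 6.80% ± 0.694 of the counts of the trio, and relative to the summed parents its log2 change was 3.29 (SE 0.143, edgeR adjusted p = 1.31e-05). With the locus and both parents summed the log2 fold change was -0.17 (edgeR adjusted p = 0.00891), the direction of NBL1. All 1623 exon bases of the locus were shared with its parents, and 1 of its 3 junctions was its own. Its rise is therefore a rise in assigned counts, and how reads over the shared exons were divided is not known.

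The second locus with a large change, URGCP-MRPS24 (gene ID 100534592), rested on few counts. URGCP encodes a protein that promotes cell proliferation and MRPS24 a protein of the small mitochondrial ribosomal subunit. The locus had 18, 0 and 0 counts in the control libraries and 51, 58 and 34 counts in the PM2.5 libraries, so the groups did not overlap. Control library 1 thus held all counts of its group. Its fitted change was 2.95 on the log2 scale (edgeR, SE 0.708, adjusted p = 0.0112), and DESeq2's Wald test did not call it (adjusted p = 0.250). Without control replicate 1 the control group was at 0 and the fitted value became 8.59, which depends on the prior count and is no bound, and without control replicate 2 and control replicate 3 it was 2.39 and 2.33 (edgeR adjusted p = 0.0321 and 0.0334). MRPS24 rose from 44.9 ± 3.09 to 57.2 ± 2.34 CPM (log2 fold change 0.35, edgeR adjusted p = 0.00338) and URGCP went from 47.1 ± 1.16 to 52.0 ± 1.80 CPM (edgeR adjusted p = 0.0509). Relative to its parents the locus was higher by 2.71 on the log2 scale (SE 0.716, edgeR adjusted p = 0.0170).

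C8orf44-SGK3 (gene ID 100533105) is named for an uncharacterized reading frame and for SGK3, a kinase of the serum and glucocorticoid induced family. It had 8, 24 and 10 counts in control and 40, 61 and 39 counts in PM2.5 libraries, without overlap. It rose from 0.221 ± 0.141 to 0.720 ± 0.0940 CPM (log2 fold change 1.72, SE 0.363, edgeR adjusted p = 0.00649), whereas C8orf44 and SGK3 had log2 fold changes of -0.14 and 0.18 (edgeR adjusted p = 0.557 and 0.311). Leaving out control replicate 2, the highest control, moved the log2 change of the locus to 2.36. TMEM56-RWDD3 (gene ID 100527978) joins a transmembrane protein gene to RWDD3, which enhances conjugation of SUMO. It was at 1.53, 1.76 and 1.16 CPM in control and at 2.34, 2.23 and 2.83 CPM after PM2.5, again without overlap (log2 fold change 0.73, SE 0.176, edgeR adjusted p = 0.0112). Its parents TMEM56 and RWDD3 had log2 fold changes of 0.30 and -0.11 and were not called (edgeR adjusted p = 0.102 and 0.340).

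BORCS8-MEF2B (gene ID 4207) and RPL17-C18orf32 (gene ID 100526842) rose by less and with little spread. BORCS8 encodes a subunit of the BORC complex that positions lysosomes, MEF2B a MADS-box transcription factor and RPL17 a protein of the large ribosomal subunit. BORCS8-MEF2B was at 2.79, 2.46 and 2.47 CPM in control and at 3.51, 4.61 and 3.504 CPM after PM2.5 (log2 fold change 0.60, SE 0.140, edgeR adjusted p = 0.0101). RPL17-C18orf32 was at 9.33, 10.3 and 10.8 CPM and at 13.6, 13.2 and 12.2 CPM (log2 fold change 0.36, SE 0.0797, edgeR adjusted p = 0.00825). In both loci each PM2.5 library was above each control library. No parent of either was called: BORCS8 was at 15.3 ± 1.34 and 15.01 ± 1.45 CPM, MEF2B at 0.341 ± 0.286 and 0.519 ± 0.0621 CPM (log2 fold change 0.56, edgeR adjusted p = 0.466), RPL17 at 813 ± 18.3 and 833 ± 34.3 CPM, and C18orf32 at 20.1 ± 6.38 and 20.9 ± 5.24 CPM. MEF2B was at 0.0164 CPM in control library 1 and at 0.447 to 0.590 CPM in the other libraries, and against MEF2B alone BORCS8-MEF2B had a log2 change of -0.53 (edgeR adjusted p = 0.717). RPL17-C18orf32 therefore made up 1.20% ± 0.0995 of the trio in control and 1.497% ± 0.0226 after PM2.5. RPL17 has many processed pseudogenes, which can share reads with it.

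**Figure D2:**
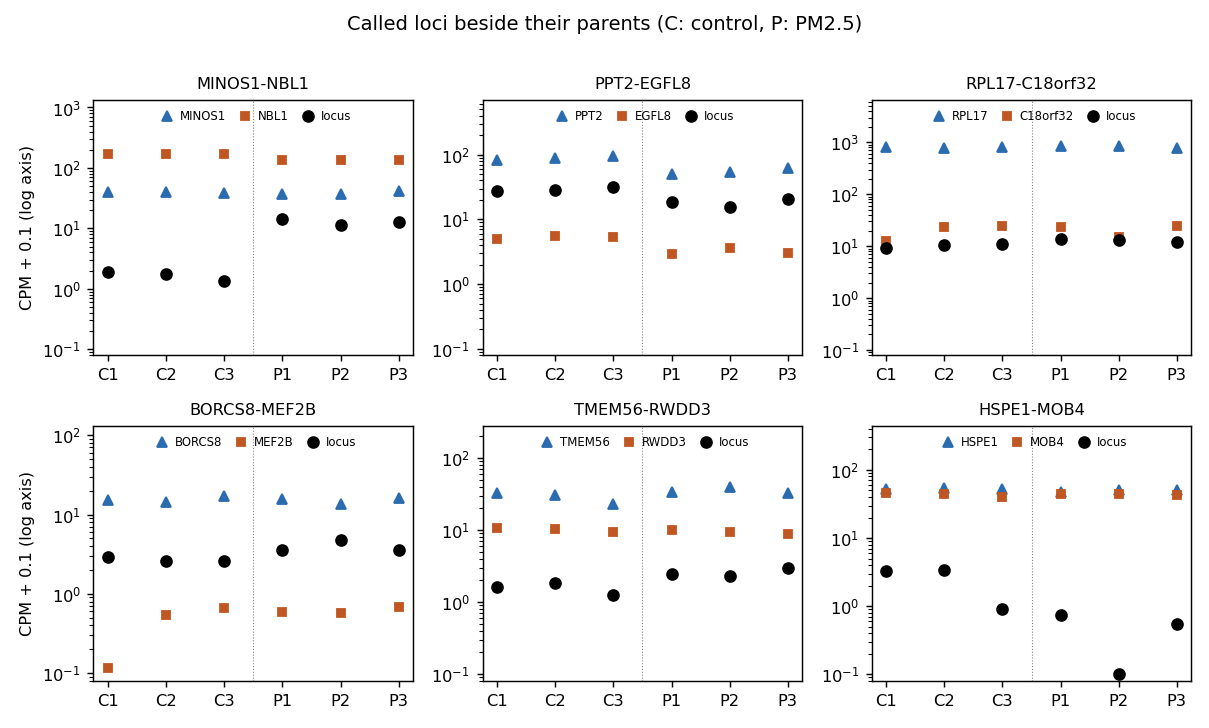
Level of 6 called loci (black circles) and their parents (blue triangles and orange squares) in each library, as CPM + 0.1 on a log axis; C1 to C3 are control and P1 to P3 PM2.5 libraries. MINOS1-NBL1 moved from 1.25 to 1.77 CPM up to 11.4 to 13.99 CPM while MINOS1 was level and NBL1 fell, PPT2-EGFL8 moved down with both parents, and HSPE1-MOB4 was low in control library 3 as well as after PM2.5.

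PPT2-EGFL8 (gene ID 100532746) was the only called locus whose parents were both called in its direction. PPT2 encodes a lysosomal thioesterase and EGFL8 a protein with epidermal growth factor-like domains. The locus was at 27.1, 28.0 and 32.1 CPM in control and at 18.8, 15.2 and 20.5 CPM after PM2.5, every PM2.5 library lower (log2 fold change -0.68, SE 0.114, edgeR adjusted p = 0.00224). PPT2 fell from 89.8 ± 7.27 to 55.3 ± 6.03 CPM (log2 fold change -0.70) and EGFL8 from 5.18 ± 0.284 to 3.06 ± 0.344 CPM (log2 fold change -0.75), with edgeR adjusted p = 0.000662 and 0.00115. The locus held 23.4% ± 0.666 of the trio in control and 23.7% ± 2.59 after PM2.5. Relative to its parents its log2 change was 0.03 (SE 0.0994, edgeR adjusted p = 0.854).

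TEN1-CDK3 (gene ID 100529145) fell, but by less than TEN1. TEN1 is a subunit of the CST complex at telomeres, and CDK3 is a cyclin-dependent kinase. The locus was at 15.5, 14.3 and 16.1 CPM in control and at 12.3, 12.3 and 13.1 CPM in PM2.5 libraries, without overlap (log2 fold change -0.29, SE 0.0700, edgeR adjusted p = 0.0118). TEN1 fell from 17.2 ± 0.946 to 12.2 ± 1.11 CPM (log2 fold change -0.50, SE 0.0827, edgeR adjusted p = 0.00206), and CDK3 was below 1 CPM in every library. Relative to its parents the locus was therefore higher, by 0.23 on the log2 scale (SE 0.0659, edgeR adjusted p = 0.0227), and its share of the trio went from 46.4% ± 0.955 to 50.4% ± 1.10. That relative call was lost without control replicate 2 (edgeR adjusted p = 0.0728), PM2.5 replicate 1 (0.0795) or PM2.5 replicate 2 (0.0621), while the fall of the locus itself was called whichever library was left out.

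HSPE1-MOB4 (gene ID 100529241) had the largest estimated fall among the called loci and a wide spread. HSPE1 encodes the co-chaperonin of the mitochondrial matrix and MOB4 a component of the STRIPAK phosphatase complex. The locus had 192, 204 and 56 counts in the control libraries and 39, 0 and 26 counts in the PM2.5 libraries. The groups did not overlap, but control library 3 lay nearer to the highest PM2.5 library than to the other controls. The fitted change was -2.80 on the log2 scale (edgeR, SE 0.756, adjusted p = 0.0183), whereas HSPE1 and MOB4 had log2 fold changes of -0.09 and 0.02 and were not called. The call was lost without control replicate 1 (edgeR adjusted p = 0.0513), control replicate 2 (0.0553) or PM2.5 replicate 2 (0.0567), with DESeq2 (adjusted p = 0.147) and with limma-voom (adjusted p = 0.0594). Leaving out PM2.5 replicate 1 moved the log2 change to -3.56, and leaving out PM2.5 replicate 2 moved it to -2.11.

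The 8 remaining called loci each lost the call when 1 library or another was left out. CKLF-CMTM1 joins 2 genes of the chemokine-like factor family and rose from 0.334 ± 0.0522 to 0.671 ± 0.212 CPM (log2 fold change 1.03, SE 0.307, edgeR adjusted p = 0.0272). Its edgeR adjusted p was 0.0509 to 0.102 when a library other than PM2.5 replicate 3 was left out. LOC400927-CSNK1E, whose downstream parent is a casein kinase of the circadian clock, went from 8.56, 8.54 and 14.8 CPM to 19.5, 22.2 and 14.4 CPM (log2 fold change 0.82, SE 0.234, edgeR adjusted p = 0.0233). There the third control library was above the third PM2.5 library. Its edgeR adjusted p became 0.0724 and 0.0749 when control replicate 1 and control replicate 2 were left out in turn, and 0.0625 and 0.0799 when PM2.5 replicate 1 and PM2.5 replicate 2 were.

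MSH5-SAPCD1 moved against its downstream parent. MSH5 is a meiotic MutS homolog. The locus was at 4.78, 5.51 and 8.08 CPM in control and at 11.6, 7.59 and 11.4 CPM after PM2.5, overlapping in 1 library of each group (log2 fold change 0.72, SE 0.222, edgeR adjusted p = 0.0303). SAPCD1 fell from 0.493 ± 0.310 to 0.122 ± 0.0234 CPM (log2 fold change -2.01, SE 0.591, edgeR adjusted p = 0.0261), but with the counts of the locus added to it SAPCD1 rose (log2 fold change 0.63, edgeR adjusted p = 0.0352). The call of the locus was lost without control replicate 1 (edgeR adjusted p = 0.0872), control replicate 2 (0.0905), PM2.5 replicate 1 (0.0970) or PM2.5 replicate 3 (0.0845).

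ZHX1-C8orf76, beside the zinc finger and homeobox gene ZHX1, was at 1.58, 0.974 and 1.40 CPM in control and at 1.77, 1.87 and 2.19 CPM after PM2.5 (log2 fold change 0.56, SE 0.188, edgeR adjusted p = 0.0426). The groups of ZHX1-C8orf76 did not overlap, and leaving out a library other than control replicate 1 ended the call (edgeR adjusted p = 0.0655 to 0.111). SYS1-DBNDD2, beside the Golgi trafficking gene SYS1, was at 4.45, 4.26 and 5.38 CPM and at 2.51, 4.17 and 2.24 CPM (log2 fold change -0.64, SE 0.222, edgeR adjusted p = 0.0464). The groups did not overlap, but the second PM2.5 library was at nearly the level of the lowest control, and the edgeR adjusted p was 0.0657 to 0.142 when a library other than PM2.5 replicate 2 was left out. SYS1 itself fell from 82.2 ± 1.57 to 64.3 ± 1.53 CPM (log2 fold change -0.35, edgeR adjusted p = 0.000631).

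The other lower loci were EPPIN-WFDC6, SLX1A-SULT1A3 and POC1B-GALNT4. EPPIN, a protease inhibitor known from the epididymis, was itself near the limit of detection, and EPPIN-WFDC6 fell from 0.678 ± 0.203 to 0.316 ± 0.106 CPM (log2 fold change -1.09, SE 0.333, edgeR adjusted p = 0.0292). Its call was lost without control replicate 2 (edgeR adjusted p = 0.0956), control replicate 3 (0.0595), PM2.5 replicate 1 (0.0980) or PM2.5 replicate 2 (0.0725). SLX1A encodes the catalytic subunit of a structure-specific endonuclease and SULT1A3 a sulfotransferase of catecholamines, and both have near-identical copies in the genome, so the division of reads is uncertain. SLX1A-SULT1A3 was at 7.31, 8.27 and 7.57 CPM in control and at 6.05, 5.97 and 6.87 CPM after PM2.5, without overlap (log2 fold change -0.30, SE 0.0905, edgeR adjusted p = 0.0297). SLX1A rose from 18.2 ± 1.40 to 21.6 ± 1.76 CPM (log2 fold change 0.25, edgeR adjusted p = 0.0397). With the locus lower, its share of the trio fell from 23.8% ± 1.73 to 18.7% ± 0.202. The call of the locus was lost without control replicate 2 (edgeR adjusted p = 0.0939), PM2.5 replicate 1 (0.108) or PM2.5 replicate 2 (0.118).

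POC1B, a centriole protein gene, rose from 15.5 ± 1.98 to 19.9 ± 0.107 CPM (log2 fold change 0.36, edgeR adjusted p = 0.0141), while POC1B-GALNT4 was at 6.88, 3.72 and 3.82 CPM in control and at 2.51, 3.22 and 1.99 CPM after PM2.5 (log2 fold change -0.88, SE 0.273, edgeR adjusted p = 0.0315). GALNT4, an enzyme that starts mucin-type O-glycosylation, was at 8.33 ± 2.63 and 7.86 ± 0.837 CPM. The groups of the locus did not overlap, and control library 1 was far above the other controls. Leaving out control replicate 1, PM2.5 replicate 1 or PM2.5 replicate 3 ended the call (edgeR adjusted p = 0.0620, 0.0980 and 0.105).

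The change of each locus was then tested against that of its parents. Relative to the summed counts of its parents, 14 of the 93 loci were called, 11 higher and 3 lower, or 15.1%. In that whole-table fit 43.5% of all genes were called, but genes other than the loci were tested on their plain change. That share is therefore no background for the relative calls. The 3 lower were HSPE1-MOB4 (log2 change -2.75, SE 0.741), POC1B-GALNT4 (-1.13, SE 0.334) and SLX1A-SULT1A3 (-0.44, SE 0.0899), with edgeR adjusted p = 0.0182, 0.0262 and 0.00561. Among the 11 higher, C8orf44-SGK3 stood at 1.64, CKLF-CMTM1 at 0.87, MSH5-SAPCD1 at 0.86, ZHX1-C8orf76 at 0.73, BORCS8-MEF2B at 0.63, TMEM56-RWDD3 at 0.53 and RPL17-C18orf32 at 0.32 on the log2 scale. PPT2-EGFL8, LOC400927-CSNK1E, EPPIN-WFDC6 and SYS1-DBNDD2 were called on their own but not against their parents (edgeR adjusted p = 0.854, 0.124, 0.924 and 0.0703). Of the 14 relative calls, those of MINOS1-NBL1, C8orf44-SGK3, RPL17-C18orf32 and SLX1A-SULT1A3 were made whichever library was left out. That of URGCP-MRPS24 was lost without control replicate 3 (edgeR adjusted p = 0.0503), PM2.5 replicate 1 (0.0503) or PM2.5 replicate 2 (0.0599), and that of BORCS8-MEF2B without control replicate 2 (0.0750), control replicate 3 (0.111) or PM2.5 replicate 2 (0.0836). That of TMEM56-RWDD3 was kept only when PM2.5 replicate 2 was left out, with edgeR adjusted p = 0.0548 to 0.120 without each other library. The relative calls of HSPE1-MOB4, POC1B-GALNT4, CKLF-CMTM1, MSH5-SAPCD1 and ZHX1-C8orf76 were lost without 3 to 5 of the libraries in turn, at edgeR adjusted p = 0.0507 to 0.169.

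One locus was called only against its parents. SAA2 and SAA4 encode serum amyloid A apolipoproteins, the first an acute-phase protein and the second made constitutively. SAA2-SAA4 (gene ID 100528017) was at 2.53, 2.62 and 2.07 CPM in control and at 2.64, 3.18 and 2.32 CPM after PM2.5, and the groups overlapped (log2 fold change 0.19, edgeR adjusted p = 0.357). SAA2 was at 58.9 ± 8.44 and 50.2 ± 5.18 CPM. Relative to both parents the log2 change of the locus was 0.39 (SE 0.109, edgeR adjusted p = 0.0203), with 3.83% ± 0.175 of the trio in control and 4.95% ± 0.332 after PM2.5. This relative call was lost without control replicate 1 (edgeR adjusted p = 0.0695) or PM2.5 replicate 2 (0.0746).

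At least 1 parent was called beside 9 of the 17 called loci, 52.9%, and beside 50 of all 93 tested loci, 53.8%. In 8 called loci no parent was called, and in 41 loci that were not called at least 1 parent was. In 35 trios neither the locus nor a parent was called. Both parents were called in 16 trios, in the same direction in 8 and in opposite directions in 8, and PPT2-EGFL8 was the 1 called locus among them. The loci with a called parent and no call of their own had a median standard error of 0.476 on the log2 scale, beside a median absolute log2 fold change of 0.19 among the tested parents.

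A pair of trios, chosen after their values were seen, show parents with large changes beside a locus without a call. TNFRSF6B, a decoy receptor of the tumour necrosis factor receptor family, was at 4.14, 2.22 and 1.54 CPM in control and at 13.7, 10.7 and 10.4 CPM after PM2.5 (log2 fold change 2.15, SE 0.288, edgeR adjusted p = 0.000817). RTEL1-TNFRSF6B was at 5.73, 5.94 and 10.3 CPM and at 3.52, 4.21 and 13.1 CPM (log2 fold change -0.11, SE 0.476, edgeR adjusted p = 0.872), so TNFRSF6B separated the groups and its readthrough locus did not. TM4SF19, a tetraspanin-like membrane protein gene, went from 0.411, 0.447 and 0.132 CPM to 1.87, 1.70 and 1.86 CPM (log2 fold change 2.47, SE 0.291, edgeR adjusted p = 0.000477). TM4SF19-TCTEX1D2 was at 0.294 CPM or less in control and at 0.393 CPM or less after PM2.5, an estimated log2 change of 0.11 (SE 0.730).

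Readthrough loci also varied more between libraries of the same group than their parents. The spread is given as the standard deviation of log2(CPM + 0.1) within a group, averaged over both groups as a root mean square. Its median was 0.65 for the 93 tested loci, 0.11 for the 220 tested parents and 0.10 for all genes tested. For the loci it was 0.40 with 0.5 CPM added in place of 0.1, and 0.42 over loci with at least 1 count in every library, a restriction chosen after seeing the data. Among genes under 1 CPM the median was 0.80 for 34 loci, 0.65 for 20 parents and 0.31 for all genes, with parents nearer to the loci than to all genes. From 1 to 10 CPM it was 0.72 for 47 loci, 0.16 for 57 parents and 0.15 for all genes, and at 10 CPM and above 0.23 for 12 loci, 0.08 for 143 parents and 0.07 for all genes. The biological coefficient of variation estimated by edgeR lay above its trend at the same abundance in 73 of 93 loci, in 67 of 220 parents and in 17.9% of all genes. Its median ratio to the trend was 2.95 for the loci and 0.67 for the parents.

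**Figure D3:**
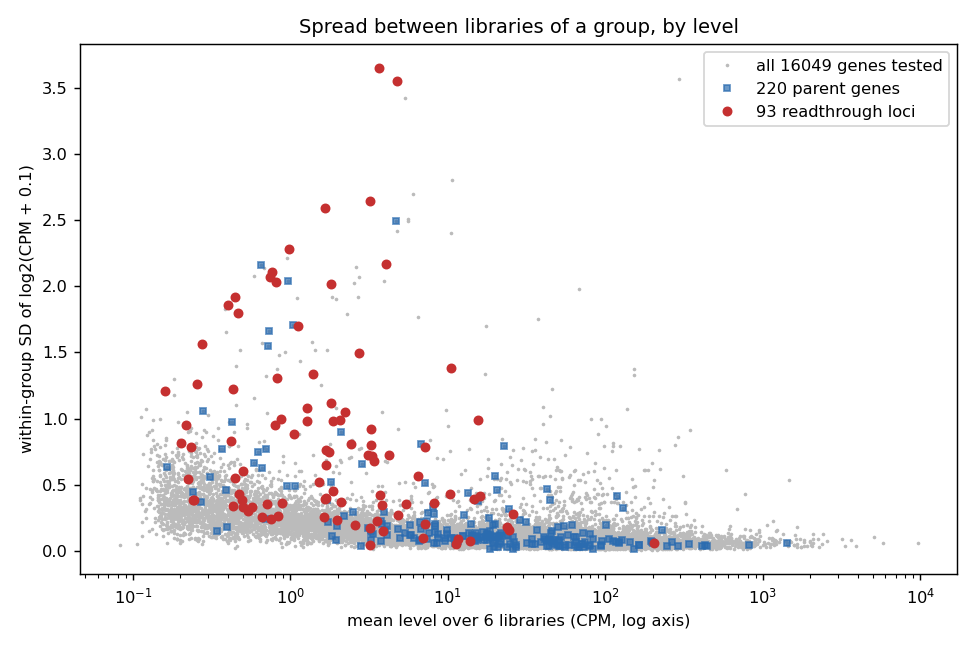
Standard deviation of log2(CPM + 0.1) within groups against mean CPM (log axis) for the 93 tested readthrough loci (red), the 220 tested parents (blue) and all 16049 genes tested (grey). Between 1 and 10 CPM the loci had a median of 0.72 and all genes 0.15, and LY75-CD302 and RPS10-NUDT3 reached 3.65 and 3.55.

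The spread differed with how much sequence a locus had of its own. Among tested loci it had a median of 0.72 in the 41 with no own exon base, 0.73 in the 15 with 1 to 99 and 0.39 in the 34 with at least 100. These classes differed in level as well, with median levels of 1.76, 0.470 and 1.92 CPM. They held 6, 2 and 9 of the called loci. The called loci had a median spread of 0.33 and the others 0.77.

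Summed with its parents, of whose counts it was mostly a small part, a locus showed little spread. The sum of both parents had a median spread of 0.087 and the sum of all 3 rows 0.077, which was under that of the locus in 90 of 93 trios. In 96 of 171 pairs of a tested locus and a tested parent the deviations from the group means ran, on balance, in opposite directions. In 15 of the 171 pairs, from 14 loci, the sum varied less in CPM than either row did. Neither share was computed for pairs of unrelated rows, so whether they are unusual is not known.

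LY75-CD302 (gene ID 100526664) had the largest spread of the tested loci. LY75 is an endocytic receptor of the C-type lectin family, as is CD302. The locus had 0, 769 and 0 counts in the control libraries and 0, 404 and 239 counts in the PM2.5 libraries. A single control library thus held all control counts, while 1 PM2.5 library had none. LY75 was at 44.0 ± 7.87 and 56.8 ± 1.96 CPM and CD302 at 11.4 ± 0.575 and 17.0 ± 1.87 CPM, and both rose (log2 fold changes 0.37 and 0.57, edgeR adjusted p = 0.0296 and 0.00179). The locus had a log2 fold change of -0.31 with a standard error of 1.40.

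RPS10-NUDT3 (gene ID 100529239), which joins a gene of the small ribosomal subunit to an inositol phosphate hydrolase, had 538, 0 and 482 counts in control and 0, 338 and 457 counts in PM2.5 libraries. Each group had 1 library at 0 and the others at 338 counts or more. RPS10 was at 436 ± 16.8 and 427 ± 8.21 CPM and NUDT3 at 25.6 ± 1.33 and 24.3 ± 0.171 CPM, so neither parent showed a gap in those libraries. BUB1B-PAK6 (gene ID 106821730), beside the spindle checkpoint kinase BUB1B and the p21-activated kinase PAK6, had 272, 15 and 290 counts in control and 2, 338 and 333 counts after PM2.5. The low libraries were again control replicate 2 and PM2.5 replicate 1.

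TMX2-CTNND1 (gene ID 100528016) had 475, 87 and 0 counts in control and 0, 58 and 0 counts in PM2.5 libraries, beside parents at far higher levels. TMX2, a thioredoxin-related membrane protein, fell from 226 ± 12.4 to 174 ± 3.43 CPM and CTNND1, the delta catenin of adherens junctions, from 1555 ± 90.4 to 1301 ± 20.7 CPM (edgeR adjusted p = 0.000902 and 0.00550). The estimated log2 fold change of the locus was -3.32 with a standard error of 1.5 and was not called (edgeR adjusted p = 0.108). TSNAX-DISC1 (gene ID 100303453), beside the scaffold protein gene DISC1, had 22, 132 and 0 counts in control and 17, 226 and 2 counts after PM2.5. Its high libraries were the second of each group.

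Such movement between 0 and many counts was counted with a rule set after the values had been seen: 0 counts in 1 library and at least 50 in another of the same group. It held in 11 of the 93 tested loci, 11.8%, and in 37 of all 16049 genes tested, 0.231%, so readthrough loci were 29.7% of the genes with this pattern. Of the 220 tested parents 2 showed it. The 11 loci were LY75-CD302, RPS10-NUDT3, TMX2-CTNND1, TSNAX-DISC1, ATP5J2-PTCD1, NDUFC2-KCTD14, PTGES3L-AARSD1, TRIM39-RPP21, TNFSF12-TNFSF13, WRB-SH3BGR and LOC110117498-PIK3R3. Of these, 8 had no own exon base, 1 had 1 to 99 and 2 had at least 100.

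**Figure D4:**
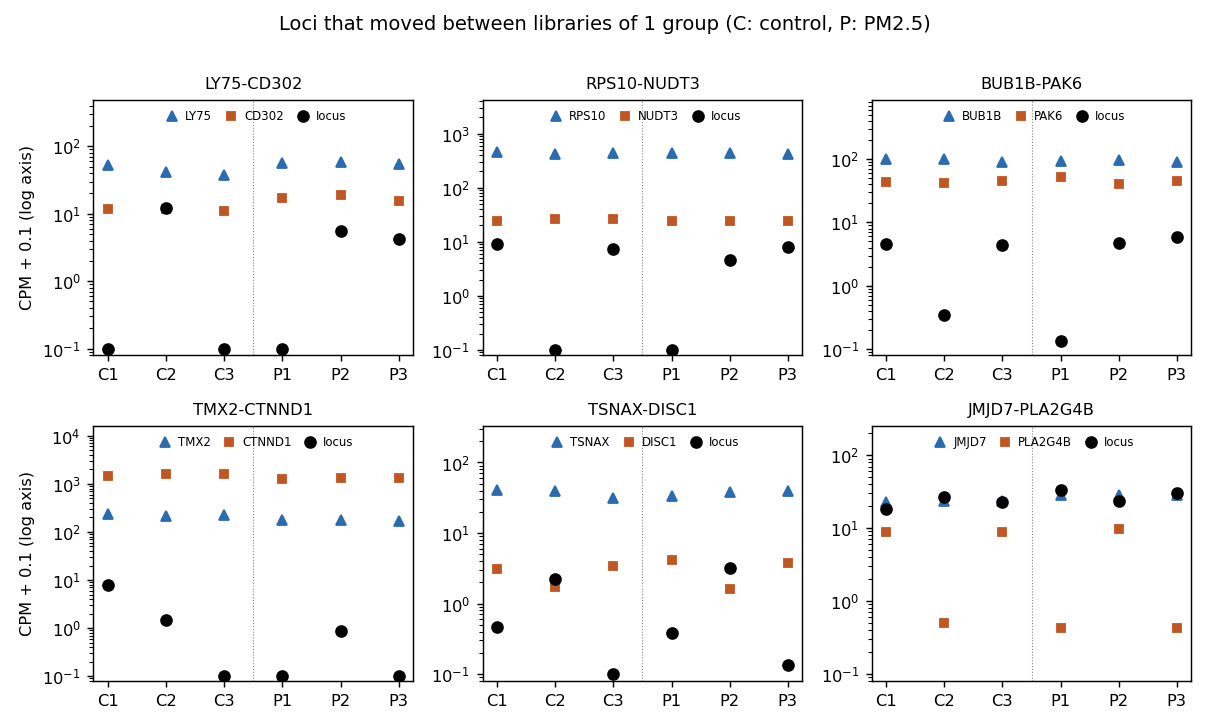
Level of 6 loci (black circles) and their parents (blue triangles and orange squares) in each library, as CPM + 0.1 on a log axis; C1 to C3 are control and P1 to P3 PM2.5 libraries. Points at 0.1 are libraries with 0 counts, as for LY75-CD302 in C1, C3 and P1, and PLA2G4B is low in C2, P1 and P3, where JMJD7-PLA2G4B is high.

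In a few trios the locus and 1 parent moved in opposite directions between libraries while their sum varied less than either. JMJD7 encodes a Jumonji-type lysyl hydroxylase and PLA2G4B a cytosolic phospholipase. JMJD7-PLA2G4B (gene ID 8681) was at 18.05, 27.1 and 22.4 CPM in control and at 33.7, 23.5 and 30.6 CPM after PM2.5. PLA2G4B was at 8.64, 0.399 and 8.75 CPM and at 0.328, 9.55 and 0.330 CPM. The parent was thus nearly absent from control library 2 and from PM2.5 libraries 1 and 3, and the locus was highest in its group in control library 2 and in PM2.5 library 1. Their sum was 26.7, 27.5 and 31.2 CPM and 34.0, 33.1 and 30.9 CPM, with a standard deviation within groups of 2.03 CPM against 4.87 for the locus and 5.06 for the parent. JMJD7 itself rose from 23.3 ± 0.362 to 28.6 ± 0.206 CPM (log2 fold change 0.29, edgeR adjusted p = 0.00231).

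CHKB-CPT1B (gene ID 386593) moved against CHKB, a choline kinase, and not against CPT1B, a carnitine palmitoyltransferase of muscle mitochondria. The locus was at 13.7, 25.5 and 23.9 CPM in control and at 16.3, 2.81 and 11.2 CPM after PM2.5, with CHKB at 26.4, 22.4 and 23.4 CPM and at 25.8, 38.6 and 35.3 CPM. CHKB was highest in PM2.5 library 2, where the locus was lowest. The sum of the locus and CHKB was 40.1, 47.9 and 47.2 CPM in control and 42.1, 41.4 and 46.5 CPM after PM2.5. This sum had a standard deviation of 3.63 CPM within groups, against 6.62 for the locus and 4.94 for CHKB. CPT1B was at 34.5 ± 1.87 and 34.4 ± 0.251 CPM. CHKB was called higher (log2 fold change 0.47, edgeR adjusted p = 0.0282). The locus was not called (log2 fold change -1.08, SE 0.506, edgeR adjusted p = 0.120). For TSNAX-DISC1 and DISC1 the standard deviations were 1.43 and 1.17 CPM apart and 0.380 CPM summed.

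The filter on low counts left out 10 loci with at least 50 counts in a library, because too few libraries had counts. ATP6V1G2-DDX39B (gene ID 100532737), beside the DDX39B helicase of mRNA export, had 1, 1 and 0 counts in control and 3163, 1 and 0 counts in PM2.5 libraries. DDX39B was at 157, 196 and 208 CPM in those PM2.5 libraries, lowest where the locus was high, and the sum of both rows was 209, 197 and 208 CPM. BIVM-ERCC5 (gene ID 100533467), beside the DNA repair endonuclease ERCC5, had 575 counts in control library 2, 553 in PM2.5 library 3 and 0 in the other libraries. BIVM was at 25.8 CPM in that control library and at 44.6 and 40.4 CPM in the other controls, and at 31.0 CPM in that PM2.5 library and at 55.2 and 59.3 CPM in the others. BLOC1S5-TXNDC5 had 452 counts in PM2.5 library 2 alone, and DNAAF4-CCPG1 had 205 in control library 3 alone, where DNAAF4 was at 0.485 CPM against 2.25 and 2.78 CPM in the other controls. These loci were chosen after their values were seen, and none has a test.

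Genes of the machinery that ends transcripts were listed separately, since readthrough depends on it. Genes of nonsense-mediated decay, which can degrade readthrough transcripts, were listed with them. Of 59 tested genes in 4 lists, 20 were lower after PM2.5, 3 higher and 36 not called, that is 39.0% called where 43.6% of all genes were. Cleavage and polyadenylation had 0 higher and 7 lower of 19, transcription termination 1 and 7 of 14, the Integrator complex 2 and 2 of 11, and nonsense-mediated decay 0 and 4 of 15. Over all genes tested, 21.7% were called higher and 22.0% lower. The median log2 fold changes of the lists were -0.12, -0.16, 0.08 and -0.09, against 0.00 over all genes tested. CPSF6, a subunit of cleavage factor I, fell from 106 ± 4.32 to 78.9 ± 0.666 CPM (log2 fold change -0.42, edgeR adjusted p = 0.000361), and XRN2, the exonuclease that degrades RNA behind the polymerase, from 182 ± 5.30 to 147 ± 1.62 CPM (-0.31, edgeR adjusted p = 0.000890). WDR33, which binds the polyadenylation signal, had a log2 fold change of -0.25, the helicase DHX9 -0.43, the Integrator subunits INTS5 and INTS8 -0.50 and 0.32, and the exon junction and decay factors RBM8A and SMG9 -0.38 and -0.33, all called.

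PABPN1, the nuclear poly(A)-binding protein, stood both in the cleavage and polyadenylation list and among the parents, as the downstream gene of BCL2L2-PABPN1. It fell from 117 ± 6.91 to 95.2 ± 5.99 CPM (log2 fold change -0.30, edgeR adjusted p = 0.00704), while its neighbour BCL2L2, an inhibitor of apoptosis, rose from 59.4 ± 0.120 to 76.6 ± 2.39 CPM (0.37, edgeR adjusted p = 0.000576). The readthrough locus between them was at 4.20, 2.86 and 0.985 CPM in control and at 2.54, 5.05 and 3.83 CPM after PM2.5, with overlapping groups and no call (log2 fold change 0.54, SE 0.434, edgeR adjusted p = 0.351).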

How the data were processed

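Polyadenylated RNA of SZ95 sebocytes, 3 control and 3 PM2.5 libraries, was analysed. The authors deposited 1 table of read counts per gene, not normalized, with NCBI gene IDs and symbols. The submitters' processing notes list hg19 as the build and, without roles, DESeq2, HISAT2 2.0.5, Trimmomatic 0.32 and StringTie 1.3.3b. For the counting step and its use of strand, nothing was given in the sources used here. One column name with an extra hyphen was read as PM2.5 replicate 1.

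Counts were tested in R 4.3.3 with edgeR 4.0.16 (TMM, filterByExpr with its defaults, 10 counts in enough libraries and 15 in all, glmQLFit, two-sided glmQLFTest), treatment as the only factor, with Benjamini-Hochberg adjustment over 16049 genes. DESeq2 1.42.0 and limma 3.58.1 were alternatives. A locus was tested relative to its parents by adding the log of their summed CPM, with 0.5 counts added, to its offset, in a fit of the whole table. Both fits were tested on simulated data. Changes were simulated only in genes at 1 CPM or more, and 34 of the 93 tested loci were below 1 CPM. The simulation therefore does not show how the fits behave for those loci. Its reference rows were drawn independently of the changed genes, so it also does not cover loci that share exons with their parents. An exact permutation of 3 against 3 libraries cannot give a p below 0.1. In their deviations from the group means, libraries of equal number had r = -0.011, 0.080 and 0.096. Other pairs of a control and a PM2.5 library had r = -0.135 to 0.063. The values of 0.080 and 0.096 were thus the highest, but libraries were not treated as pairs in the main fit. A replicate block was among the alternatives.

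Named genes were the called loci, those called relative to their parents, the 6 most abundant, the 5 with the largest spread, up to 6 exceeding a parent in all libraries, with their parents, and 2 genes per machinery list. The loci and lists were chosen with earlier results of these data known. Exons came from GENCODE release 29 mostly through RefSeq accessions, and for a few genes by NCBI gene ID or name.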

Additional observations from a re-analysis of the deposited data

How the results depend on the processing

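Across DESeq2, limma-voom, other scalings, other filters, the replicate block and the removal of each library, 12.1% to 22.2% of tested loci were called, against 32.8% to 47.3% of all genes. BORCS8-MEF2B, RPL17-C18orf32, TMEM56-RWDD3, TEN1-CDK3, MINOS1-NBL1, PPT2-EGFL8 and C8orf44-SGK3 were called in every such setting that tested them. With the replicate block 11 loci were higher and 9 lower, 5 lower relative to their parents, and 5 machinery genes higher, while LOC400927-CSNK1E (adjusted p = 0.0502) and SYS1-DBNDD2 (0.0602) lost their calls. With library size as the only scaling 7 machinery genes were higher, and SLX1A-SULT1A3 (edgeR adjusted p = 0.0846) and SYS1-DBNDD2 (0.0780) lost their calls. Without a filter SYS1-DBNDD2 (edgeR adjusted p = 0.0678), POC1B-GALNT4 (0.0533) and ZHX1-C8orf76 (0.0525) lost theirs, as did SYS1-DBNDD2 at a mean count of at least 50 (0.0529). Summing each locus with its parents gave 14 higher and 21 lower trios, with reversed log2 changes for MINOS1-NBL1 (-0.17), ZHX1-C8orf76 (-0.15), SLX1A-SULT1A3 (0.051) and POC1B-GALNT4 (0.085); this setting measures mostly the parents. SAPCD1 turned to 0.63 with the locus added to it, and 66 of the 78 called parents kept their call and direction when the locus was added. Relative to the second parent alone, 7 loci were higher and 5 lower, and BORCS8-MEF2B turned to -0.53.

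Without 1 library at a time the counts were 8 to 13 higher and 4 to 9 lower loci (4 without PM2.5 replicate 1), 25 to 35 higher and 29 to 41 lower parents (25 without PM2.5 replicate 1), 7 to 13 higher and 2 to 6 lower loci relative to parents (7 without control replicate 2 or PM2.5 replicate 1 or 2, 6 without PM2.5 replicate 3), 2 to 4 higher and 15 to 25 lower machinery genes, and median spreads of 0.53 to 0.61 for loci, 0.0879 to 0.113 for parents and 0.0776 to 0.101 for all genes. The median share of the trio was 2.94% to 3.51%. The median spread of the loci was 0.40 with 0.5 CPM added and 0.42 over loci with at least 1 count in every library, the latter chosen after seeing the data. The cause of these shifts was not tested. Loci of a few counts per library limit what can be resolved.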
